A study of Homo sapiens with 8 samples.

Results

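Cytoplasmic dynein and the transport kinesins are the motors that carry vesicles and organelles along microtubules, and 10 genes of their subunits were followed after knockdown of IGF2R. The members were 7 dynein genes, DYNC1H1, DYNC1I2, DYNC1LI1, DYNC1LI2, DYNLL1, DYNLT1 and DYNLT3, and 3 kinesin genes, KIF3A, KIF3B and KIF5B. They were taken by name, with earlier results of these data known. Every probe set that the platform annotation gives to 1 of these genes alone was used. This gave 26 of the 54675 probe sets on the array, and 18 of them reached a signal of 500 on at least 1 array, as 16517 probe sets did in all. All 10 genes had such a probe set, among 8961 genes that did.

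The study asked how the transcriptome of cervical cancer cells changes when IGF2R is lost. BOKU and SKG-I, both established lines from cervical cancer, received siRNA against IGF2R (siIGF2R) or control siRNA (siCtrl) by lipofection and were kept in culture for 72 h. The groups were therefore BOKU siIGF2R, BOKU siCtrl, SKG-I siIGF2R and SKG-I siCtrl. Each group was 1 RNA sample hybridised to 2 arrays, which makes 8 arrays of 4 RNA samples, with the 2 lines as the only replicates. No genetic change was made to the cells, all groups went through the same transfection, and a transient siRNA lowers its target without removing it. The siRNA sequence on these arrays is not given in the sources used here.

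Cytoplasmic dynein walks towards the minus ends of microtubules, which in many cells lie near the Golgi apparatus and the centrosome. Its heavy chains hold the motor, its intermediate chains bind the dynactin complex and carry the light chains, and its light intermediate chains bind the adaptors that select cargo. Most kinesins walk the other way, towards the cell periphery. IGF2R, the cation-independent mannose 6-phosphate receptor, moves lysosomal enzymes from the Golgi apparatus to endosomes and is itself cargo of vesicle transport.

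3 of the 10 genes were called lower after siIGF2R (limma adjusted p under 0.05), against 2.59% of the 8961 genes measured. They were DYNC1I2, an intermediate chain, DYNLT3, a light chain, and KIF3B, a kinesin-2 motor. Their promoters are shown because they moved together, and that of DYNLT1, the other light chain of the same family, is shown because its signal did not follow that of DYNLT3. Each window runs from 250 bases before to 50 bases after a RefSeq start of transcription (build GRCh38.p14) and reads along the gene's strand. Capitals mark 4 motifs, each searched on both strands with overlapping matches kept. The GC box was searched as GGGCGG. The box bound by NF-Y in many promoters was searched as CCAAT. The core of the cAMP response element was searched as TGACG. The palindromic E-box was searched as CACGTG. The windows lie at chr2:171687219-171687518 (DYNC1I2, plus strand), chrX:37847522-37847821 (DYNLT3, minus strand), chr20:32277401-32277700 (KIF3B, plus strand) and chr6:158644694-158644993 (DYNLT1, minus strand).
DYNC1I2: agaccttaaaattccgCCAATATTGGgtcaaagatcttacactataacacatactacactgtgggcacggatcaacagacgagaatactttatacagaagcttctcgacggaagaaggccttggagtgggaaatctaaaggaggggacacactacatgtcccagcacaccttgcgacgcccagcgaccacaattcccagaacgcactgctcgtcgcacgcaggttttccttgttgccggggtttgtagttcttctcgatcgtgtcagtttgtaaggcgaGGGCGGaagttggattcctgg
DYNLT3: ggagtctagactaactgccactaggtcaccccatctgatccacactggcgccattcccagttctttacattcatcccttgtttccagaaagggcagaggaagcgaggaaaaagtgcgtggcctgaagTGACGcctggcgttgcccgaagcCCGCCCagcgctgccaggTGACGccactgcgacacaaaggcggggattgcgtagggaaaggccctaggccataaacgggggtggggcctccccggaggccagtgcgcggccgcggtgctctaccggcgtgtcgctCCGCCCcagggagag
KIF3B: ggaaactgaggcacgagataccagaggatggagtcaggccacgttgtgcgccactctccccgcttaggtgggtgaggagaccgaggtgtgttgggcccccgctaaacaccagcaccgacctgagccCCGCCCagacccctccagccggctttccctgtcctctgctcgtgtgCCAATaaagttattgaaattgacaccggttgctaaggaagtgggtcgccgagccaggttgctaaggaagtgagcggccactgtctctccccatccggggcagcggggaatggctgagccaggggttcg
DYNLT1: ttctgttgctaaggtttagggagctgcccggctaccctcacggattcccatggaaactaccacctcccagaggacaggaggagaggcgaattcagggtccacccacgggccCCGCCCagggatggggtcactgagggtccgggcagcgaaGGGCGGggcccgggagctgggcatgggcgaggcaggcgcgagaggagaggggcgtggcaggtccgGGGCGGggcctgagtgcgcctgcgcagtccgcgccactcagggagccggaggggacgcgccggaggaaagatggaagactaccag

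All 10 members had a promoter in RefSeq, with 12 windows in all, since DYNC1I2 and DYNLL1 had 2 each. A GC box stood in 12 of the 12 windows and in 45.0% of all 35116 promoters. The window of DYNC1I2 shown holds 1 GC box and 2 CCAAT motifs, on opposite strands and side by side, near its upstream end. KIF3B has 1 CCAAT motif and 1 GC box. CCAAT was found in 4 of the 12 windows and in 34.6% of all promoters. DYNLT3 has 2 TGACG cores and 2 GC boxes, whereas DYNLT1 has 3 GC boxes and no TGACG core. TGACG was found in 4 of the 12 windows and in 24.6% of all promoters, and the E-box in 0 of the 12 and in 7.26%. Only the GC box was in the windows shown of all 3 genes called lower. Their GC contents were 50% (DYNC1I2), 63.3% (DYNLT3) and 61.7% (KIF3B), the other window of DYNC1I2 had 53.3%, and all windows of the other members had 65.0% to 78.3%. The median over all promoters was 58.7%.

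The knockdown itself was seen in the target. The IGF2R probe set 201393_s_at had signals of 641 and 645 on the BOKU siIGF2R arrays, against 7288 and 6710.5 on the BOKU siCtrl arrays. In SKG-I it had 257 and 295 with siIGF2R, against 4119.6 and 3838 with siCtrl. These are 10.9-fold and 14.5-fold lower signals. Signals are MAS5 values in arbitrary units, scaled so that the arrays share a trimmed mean, and values of different probe sets are not compared. Of 7 squamous and epithelial markers on the array, 5 were tested, and limma called 0. Before adjustment 2 of the 5 were lower and 0 higher at a limma p under 0.05. Among all genes 15.8% were lower and 16.7% higher at that threshold. Values of markers are those of the brightest probe set of each gene. The keratins KRT8, KRT18 and KRT19 were bright in both lines, KRT5 and KRT14 stayed at or under 45.9, and EPCAM had signals of 1247 or more in SKG-I and at most 50.8 in BOKU. KRT19 was lower with siIGF2R in SKG-I, with 1968 and 1939 against 7024 and 7222 with siCtrl, whereas CDH1 was higher there, with 619 and 652 against 143 and 173 with siCtrl. In BOKU CDH1 stayed at or under 3.15. The summed signal of these markers was 31399 to 36708 in BOKU siIGF2R, against 41595 to 43770.3 in BOKU siCtrl, and 28285 to 28933 in SKG-I siIGF2R, against 37337 to 37737 in SKG-I siCtrl. Of 7 fibroblast, blood and endothelial markers on the array, only 2, COL1A1 and COL3A1, were tested. Limma also called 0 of these (none at an unadjusted p under 0.05). COL1A1 had 1187 to 1530 in BOKU and 4304 to 5684 in SKG-I, though its other probe sets stayed at or under 432. COL3A1 had 1380 to 2013 in SKG-I, PECAM1 reached 480.3 in BOKU, and COL1A2, DCN, LUM and PTPRC stayed at or under 149 in both lines. Their summed signal was 1881 to 2082 in BOKU siIGF2R, against 1956 to 1997 in BOKU siCtrl, and 6086 to 6238 in SKG-I siIGF2R, against 7891 to 7924 in SKG-I siCtrl. The part of these markers in the results was not tested.

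Among the members, limma called 4 of 18 probe sets lower after siIGF2R at an adjusted p under 0.05 (22.2%), where 2.09% of all probe sets tested were called lower. It called 0 members higher, against 2.2% of all, and 1 member probe set was higher at an unadjusted p under 0.05. By gene, 3 of 10 members had a probe set called lower, against 2.59% of the 8961 genes measured, and none had one called higher, against 2.97%. The same 4 probe sets were at least 2-fold lower in each line, as were 2.28% of all, and no member was at least 2-fold higher in each line, as 3.15% of all were. DYNC1I2 and KIF3B had been picked out by the study on these arrays, so that their direction is not independent evidence. The members were also chosen with earlier results of these data known. Their shares called lower are therefore not independent of that choice. The study also used quantitative RT-PCR on genes of a vesicle transport set, with different siRNAs against IGF2R, and lists primers for DYNC1I2. Those measurements were not used here. The calls rest on 2 lines and on the variance trend of the model. Without that trend limma called 0 of all 16517 probe sets (3865 at an unadjusted p under 0.05), and without the cell line as a block it also called 0 (625 unadjusted), so that IGF2R itself had no call in these settings. In bulk samples, fewer cells that express a gene and less RNA per cell cannot be told apart.

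**Figure D1:**
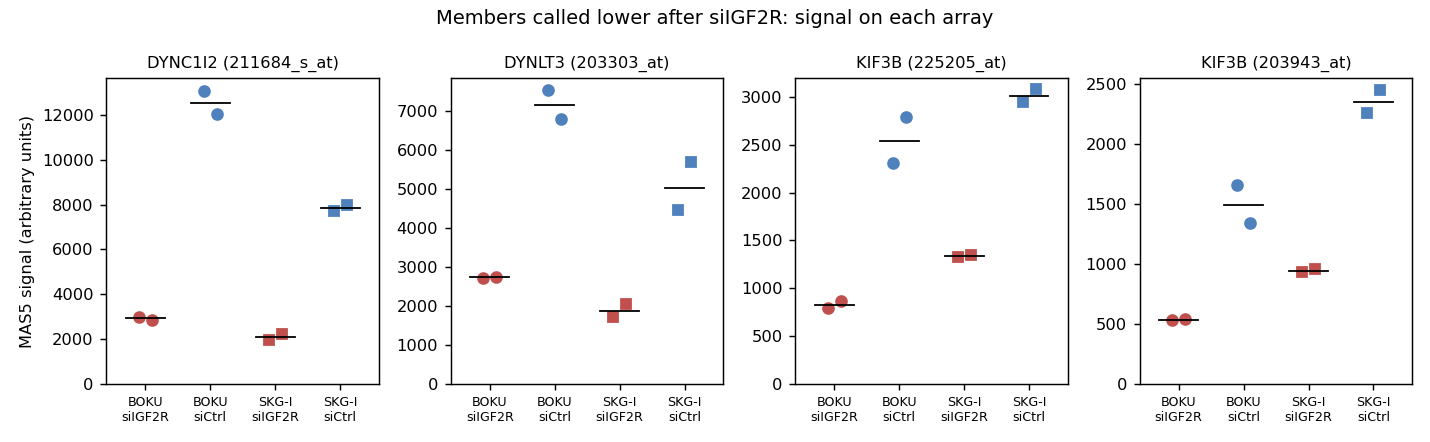
MAS5 signal (arbitrary units, vertical axis from 0) of the 4 member probe sets called lower, on each of the 8 arrays. Points are arrays and bars are the geometric means of the duplicates. In each panel both siIGF2R arrays of a line lie below both siCtrl arrays of that line.

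DYNC1I2 encodes the intermediate chain that is widely expressed, the scaffold on which the light chains sit and the part of dynein that binds dynactin. Its probe set 211684_s_at had signals of 2995 and 2836 in BOKU siIGF2R, against 13082 and 12039 in BOKU siCtrl. In SKG-I the signals were 1970.0 and 2211 with siIGF2R, against 7704 and 7965 with siCtrl. The signal was 4.31-fold lower in BOKU and 3.75-fold lower in SKG-I, and the arrays did not overlap in either line. The log2 change over both lines was −2.01 ± 0.16 (SE, n = 2 lines), with a limma adjusted p of 0.0221. This was the largest change among the members in each line. The adjusted p became 0.102 without the variance trend, within a range of 2.05e-06 to 0.9999 over the settings tried.

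A second probe set of DYNC1I2, 242363_at, lay just under the signal filter, with a highest value of 487. It had 143 and 149 in BOKU siIGF2R, against 487 and 452 in BOKU siCtrl, and 96.7 and 75.7 in SKG-I siIGF2R, against 247 and 230.4 in SKG-I siCtrl. The third, 236698_at, stayed at or under 80.7 and also had its siIGF2R arrays below its siCtrl arrays in each line. These 2 probe sets were not tested. Of the probe sets just above the filter, 201992_s_at of KIF5B had a highest value of 503.

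The 3 genes whose pattern over the 4 RNA samples was nearest to that of DYNC1I2 were PAAF1, DUSP3 and CMAS. The measure was the Euclidean distance between log2 signals, each gene centred on its own mean, over 8960 other genes with 1 probe set each. The distances were 0.12, 0.26 and 0.26, where the median distance was 2.31. These 3 genes were picked as the nearest, so that lying under the median follows from the selection. PAAF1 changed by −2.06 in BOKU and −1.88 in SKG-I on the log2 scale, DUSP3 by −1.87 in BOKU and −1.65 in SKG-I, and CMAS by −2.14 in BOKU and −1.95 in SKG-I.

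DYNLT3 and DYNLT1 are dynein light chains of the Tctex family, which join the intermediate chain and can bind cargo proteins. DYNLT3 (203303_at) had signals of 2715 and 2753 in BOKU siIGF2R, against 7548 and 6802 in BOKU siCtrl. In SKG-I it had 1720.4 and 2051 with siIGF2R, against 4449 and 5696 with siCtrl. The signal was 2.62-fold lower in BOKU and 2.68-fold lower in SKG-I, so that the lines differed by 0.03 on the log2 scale, less than the gap between the duplicate siCtrl arrays. The change over both lines was −1.41 ± 0.16 (SE, n = 2 lines; limma adjusted p = 0.0231).

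DYNLT1 (201999_s_at) did not follow. Its signals were 12104 and 12829 in BOKU siIGF2R, against 12604 and 12754 in BOKU siCtrl, and these arrays overlapped. In SKG-I it had 7545 and 7066 with siIGF2R, against 6240.0 and 6409.6 with siCtrl, with no overlap. The change over both lines was 0.09 ± 0.14 (SE, n = 2 lines; limma adjusted p = 0.706). DYNLL1 (200703_at), the LC8 light chain that also binds many proteins outside dynein, had 13767 and 14270.2 in BOKU siIGF2R, against 18266 and 16755 in BOKU siCtrl. In SKG-I it had 15756 and 14994 with siIGF2R, against 16569 and 17267 with siCtrl. All its siIGF2R arrays lay below the siCtrl arrays of their line, but the change of −0.23 ± 0.12 (SE, n = 2 lines) was not called (limma adjusted p = 0.270).

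KIF3B pairs with KIF3A and the accessory subunit KIFAP3 in heterotrimeric kinesin-2, a motor of cilia and of vesicle transport. Both of its probe sets fell. The brighter, 225205_at, had 787 and 863 in BOKU siIGF2R, against 2308 and 2792 in BOKU siCtrl, and 1329.7 and 1342 in SKG-I siIGF2R, against 2950.2 and 3079 in SKG-I siCtrl. This was 3.08-fold lower in BOKU and 2.26-fold lower in SKG-I, with a change over both lines of −1.40 ± 0.21 (SE, n = 2 lines; limma adjusted p = 0.0334). The other, 203943_at, had 528 and 541 in BOKU siIGF2R, against 1654 and 1339 in BOKU siCtrl, and 929.7 and 955 in SKG-I siIGF2R, against 2257 and 2448 in SKG-I siCtrl. Its change was −1.40 ± 0.20 (SE, n = 2 lines; limma adjusted p = 0.0314), so that the probe sets gave the same size.

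KIF3A, the partner motor, was not called. Its probe set 228680_at had 1145 and 924 in BOKU siIGF2R, against 986 and 969 in BOKU siCtrl, which overlapped, and 1033 and 865 in SKG-I siIGF2R, against 683 and 665 in SKG-I siCtrl, which did not. The change over both lines was 0.28 ± 0.22 (SE, n = 2 lines; limma adjusted p = 0.458). The dimmer 213623_at changed by 0.00 in BOKU and 0.75 in SKG-I on the log2 scale. It passed the signal filter only through its SKG-I siIGF2R arrays. KIFAP3, from the list of other transport kinesin genes, changed by 0.13 in BOKU and −0.34 in SKG-I and was not called (limma adjusted p = 0.782).

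**Figure D2:**
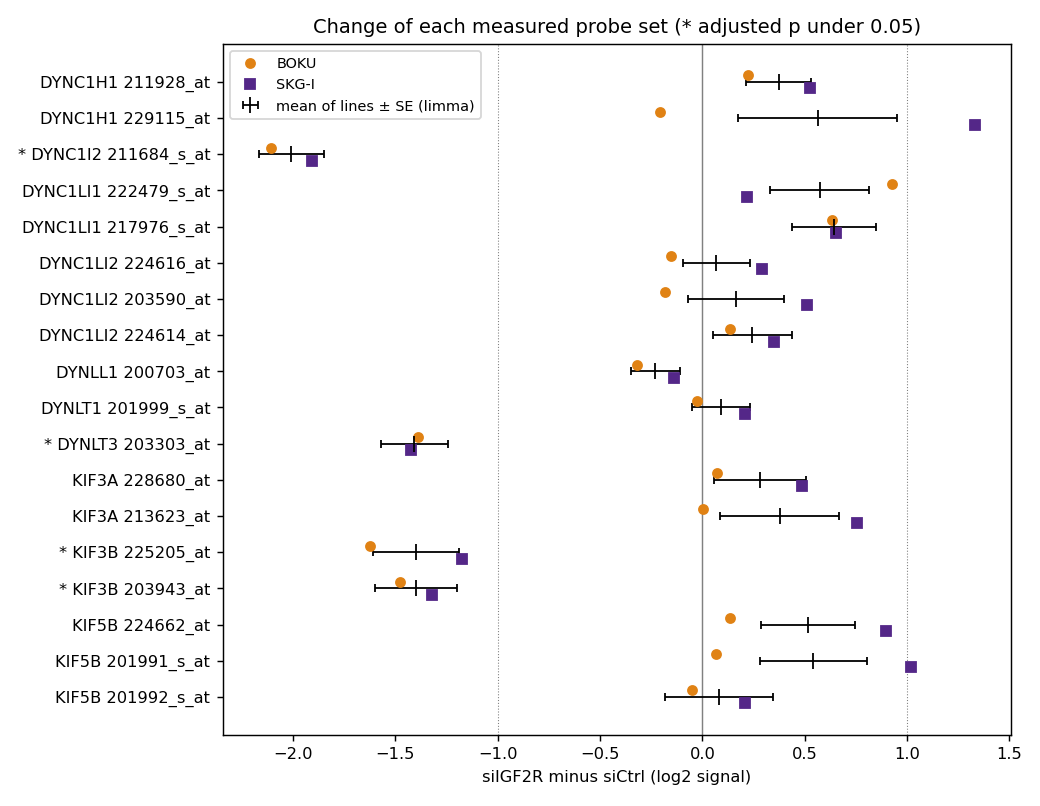
Log2 signal with siIGF2R minus that with siCtrl (horizontal axis) for the 18 measured member probe sets. Circles are BOKU, squares are SKG-I, and black marks are the mean of the lines with the SE of limma. Dotted lines mark 2-fold changes, and the 4 probe sets of DYNC1I2, DYNLT3 and KIF3B with an asterisk lie beyond 2-fold in both lines.

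The 14 probe sets of the other 7 members were not called, with log2 changes over both lines of −0.23 to 0.64 and limma adjusted p of 0.120 to 0.871. In 13 of these 14 the change was higher in SKG-I than in BOKU, and over all members in 16 of 18, where 46.1% of all probe sets tested had the higher change in SKG-I. The median change of the 14 was 0.03 in BOKU and 0.50 in SKG-I, where the medians of all probe sets tested were 0.03 in BOKU and −0.0027 in SKG-I. Both siIGF2R arrays lay above both siCtrl arrays in 12 of the 18 member probe sets in SKG-I (66.7%), against 40.6% of all, and in 4 of 18 in BOKU (22.2%), against 40.2% of all. In 4 they lay above in both lines, where 26.4% of all did, and in 5 they lay below in both lines, where 23.6% of all did. KIF5B 201992_s_at and KIF3A 213623_at passed the signal filter only through SKG-I siIGF2R arrays. Their part in this order of the lines is therefore not independent of the filter. Probe sets of 1 gene share its transcript, and each line gave 1 RNA sample per siRNA, so that the difference between the lines has no test.

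KIF5B, the widely expressed heavy chain of kinesin-1, showed this order of the lines in all 3 of its probe sets. Its probe set 201991_s_at had 3220.2 and 2912 in BOKU siIGF2R, against 2959 and 2898 in BOKU siCtrl, and these arrays overlapped. In SKG-I it had 4847 and 4772 with siIGF2R, against 2297 and 2445 with siCtrl, which is 2.03-fold higher and without overlap. A second probe set, 224662_at, had 4671 and 5229 in SKG-I siIGF2R, against 2376 and 2970.0 in SKG-I siCtrl, and its BOKU arrays overlapped, with 3170.0 and 2984 for siIGF2R, against 3264 and 2405 for siCtrl. The changes over both lines were 0.54 ± 0.26 and 0.52 ± 0.23 (SE, n = 2 lines; limma adjusted p = 0.242 and 0.218). The dim 201992_s_at overlapped in both lines and passed the signal filter only through an SKG-I siIGF2R array.

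The heavy chain DYNC1H1, the motor subunit of dynein, had it in both of its measured probe sets. Its probe set 211928_at had 9362 and 10319.9 in BOKU siIGF2R, against 8373 and 8456 in BOKU siCtrl, and 4829 and 5163 in SKG-I siIGF2R, against 3416 and 3534 in SKG-I siCtrl. The siIGF2R arrays lay above in each line, by 0.22 in BOKU and 0.52 in SKG-I on the log2 scale, but the change was not called (0.37 ± 0.16, SE, n = 2 lines; limma adjusted p = 0.1996). Its probe set 229115_at had 1208 and 1407 in BOKU siIGF2R, against 1269 and 1783 in BOKU siCtrl, which overlapped, and 463 and 509 in SKG-I siIGF2R, against 145 and 256 in SKG-I siCtrl, which did not. The other 5 probe sets of DYNC1H1 stayed at or under 216 and were not tested.

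The light intermediate chains DYNC1LI1 and DYNC1LI2 link dynein to activating adaptors. DYNC1LI1 came nearest to a call among the higher members. Its probe set 217976_s_at had 1508 and 1357 in BOKU siIGF2R, against 1042 and 818 in BOKU siCtrl, and 1111 and 916 in SKG-I siIGF2R, against 649 and 633 in SKG-I siCtrl. The arrays did not overlap in either line and the changes were alike, 0.63 in BOKU and 0.65 in SKG-I, with 0.64 ± 0.20 over both (SE, n = 2 lines; limma adjusted p = 0.120). Its other probe set, 222479_s_at, had 1916 and 2147 in BOKU siIGF2R, against 1109 and 1026 in BOKU siCtrl, and 1433 and 1748 in SKG-I siIGF2R, against 1397 and 1324 in SKG-I siCtrl. Here the change was 0.93 in BOKU and 0.22 in SKG-I, so that the probe sets of this gene differ in which line moved more.

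DYNC1LI2 went opposite ways in the lines in its probe set 224616_at. This had 8304 and 9263 in BOKU siIGF2R, against 9634 and 9900.4 in BOKU siCtrl, and 7809 and 8087 in SKG-I siIGF2R, against 6356 and 6638 in SKG-I siCtrl. The changes were −0.16 in BOKU and 0.29 in SKG-I on the log2 scale. Another, 203590_at, changed by −0.18 in BOKU, where its arrays overlapped and the change was 0.02 without BOKU siCtrl replicate 2, and by 0.51 in SKG-I, while 224614_at changed by 0.14 in BOKU and 0.35 in SKG-I. None was called (limma adjusted p = 0.456 to 0.817), and 213162_at was too dim to be tested, with a highest value of 146.

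**Figure D3:**
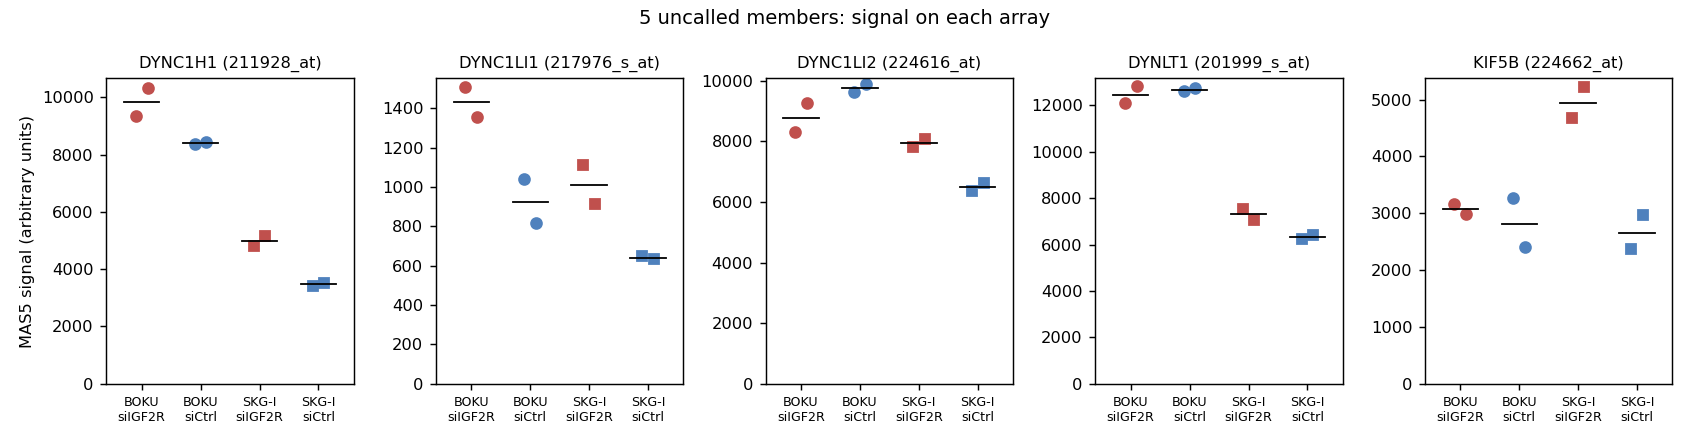
MAS5 signal (arbitrary units, vertical axis from 0) of 1 probe set each of DYNC1H1, DYNC1LI1, DYNC1LI2, DYNLT1 and KIF5B on the 8 arrays. Points are arrays and bars are geometric means of duplicates. KIF5B (224662_at) had 4671 and 5229 in SKG-I siIGF2R, above all its other arrays, while its BOKU arrays overlapped.

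The lines themselves were compared with the siRNA as a block. They also differed in the markers above, with EPCAM, CDH1 and COL3A1 higher in SKG-I, COL1A1 present in both and higher in SKG-I, and KRT19 and PECAM1 higher in BOKU. The part of this in the values below was not tested. Of the 18 member probe sets, 5 were called higher in BOKU than in SKG-I, where 22.3% of all probe sets tested were, and 1 was called lower in BOKU, where 23.2% of all were. The share called higher was thus near that of all probe sets. The members called higher in BOKU were DYNC1H1, DYNC1I2, DYNLT1 and DYNLT3, and the one called lower was KIF3B. The 4 called higher are dynein genes, as are 7 of the 10 members. DYNC1H1 differed most, by 2.19 ± 0.39 (229115_at, adjusted p = 0.00815) and 1.13 ± 0.16 (211928_at, adjusted p = 0.00425) on the log2 scale (limma, SE, n = 2 siRNAs). DYNLT1 was higher in BOKU by 0.89 ± 0.14 (adjusted p = 0.00579) and DYNC1I2 by 0.58 ± 0.16 (adjusted p = 0.0298) in the same limma fit.

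DYNLT3 was higher in BOKU by 0.53 ± 0.16 (limma adjusted p = 0.0445), a call that was lost in 9 of the 22 alternative settings. KIF3B was lower in BOKU by 0.74 ± 0.20 in 203943_at (limma adjusted p = 0.0292), while 225205_at gave −0.47 ± 0.21 and was not called (limma adjusted p = 0.116). With siCtrl alone, DYNC1I2 was 0.68 higher in BOKU than in SKG-I on the log2 scale, and with siIGF2R it was 0.48 higher. DYNLT3 was 0.54 higher in BOKU with siIGF2R and 0.51 higher with siCtrl. KIF5B (201991_s_at) was 0.65 lower in BOKU with siIGF2R and 0.31 higher in BOKU with siCtrl. These values within 1 siRNA have no test.

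**Figure D4:**
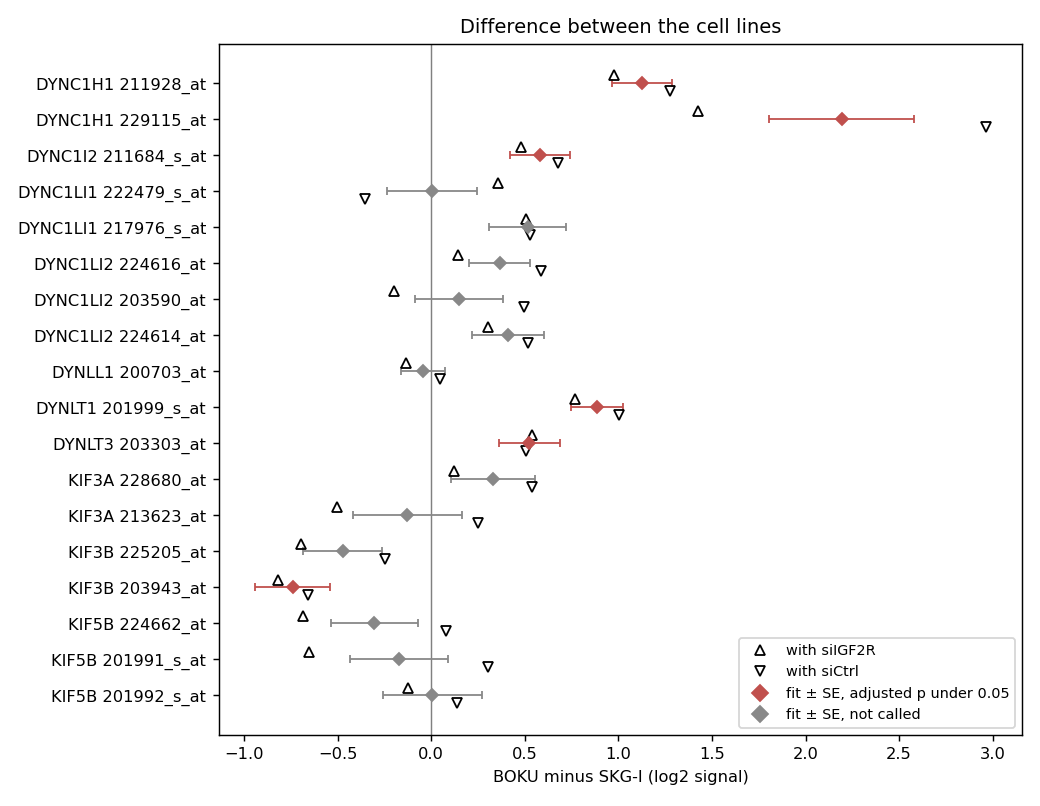
Log2 signal of BOKU minus SKG-I (horizontal axis) for the 18 measured member probe sets. Diamonds are the limma fit with its SE, red where the adjusted p is under 0.05, and open triangles are the differences with siIGF2R (upward) and with siCtrl (downward). The 5 red points to the right of 0 are dynein probe sets and the 1 to the left is KIF3B. Of the 10 members, 7 are dynein genes.

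The rest of the transport machinery was read from lists fixed by name, also with earlier results of these data known. Dynactin, the complex that joins dynein to its cargo, had 10 measured genes, of which 1 was called lower and 0 higher, against 2.59% lower and 2.97% higher among all genes. At an unadjusted p under 0.05, 5 of the 10 were lower and 0 higher, against 15.8% lower and 16.7% higher among all genes, and each list below is read against these shares. With 1 probe set per gene, 9 of the 10 were below 0 in both lines (90.0%), as were 35.7% of the 8961 genes, and the median change was −0.43 in BOKU and −0.34 in SKG-I, where the medians of all genes were 0.03 in BOKU and −0.03 in SKG-I. The called gene was CAPZA2, an actin capping subunit. Its probe set 201237_at changed by −0.79 ± 0.17 and was not called (SE, n = 2 lines; limma adjusted p = 0.0608). Its probe set 201238_s_at had 4047 and 4078 in BOKU siIGF2R, against 7405 and 6655 in BOKU siCtrl, and 6142 and 6415 in SKG-I siIGF2R, against 11278 and 10939 in SKG-I siCtrl. It changed by −0.81 ± 0.14 (SE, n = 2 lines; limma adjusted p = 0.0438), and its call was lost in 8 of 22 alternative settings, with an adjusted p of 0.0544 without BOKU siIGF2R replicate 1 (2.7e-05 to 0.9999 over all settings).

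In the list of other dynein subunits, with 7 measured genes, limma called 0 (at an unadjusted p under 0.05, 1 was lower and 0 higher), with median changes of −0.07 in BOKU and −0.12 in SKG-I. In the list of dynein regulators and cargo adaptors, with 15 measured genes, 0 were called lower and 1 higher (before adjustment 5 were higher and 0 lower at a p under 0.05), and its median change was 0.19 in BOKU and 0.12 in SKG-I. The gene called higher was NIN, the centrosome protein ninein, which can act as an adaptor of dynein. Its probe set 225921_at had 2366 and 1970.3 in BOKU siIGF2R, against 1206 and 1032 in BOKU siCtrl, and 2238 and 2176 in SKG-I siIGF2R, against 888 and 881 in SKG-I siCtrl. The change was 1.14 ± 0.21 (SE, n = 2 lines; limma adjusted p = 0.0460), while its probe set 224304_x_at was not called at 0.22 ± 0.26 (limma adjusted p = 0.626). The call of NIN was lost without BOKU siCtrl replicate 2 (adjusted p = 0.0642) and without BOKU siIGF2R replicate 1 (adjusted p = 0.0591), and in 7 of 23 alternative settings in all (7.9e-05 to 0.9999).

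In the list of other transport kinesin genes, with 10 measured, limma called 0 (at an unadjusted p under 0.05, 1 was lower and 1 higher), and its median change was −0.19 in BOKU and −0.16 in SKG-I. KIF5C, a kinesin-1 heavy chain best known from neurons, stood out and was picked after its values were seen. It had 657 and 715 in BOKU siIGF2R, against 56.4 and 74.4 in BOKU siCtrl, and at most 35.5 on the SKG-I arrays, and it was not called (limma adjusted p = 0.447). KIF5C passed the signal filter only through its BOKU siIGF2R arrays. Its BOKU change is thus a ratio to dim signals and not independent of the filter. In the list of mitotic kinesins, which serve the spindle, with 9 measured genes, limma called 0 (at an unadjusted p under 0.05, 0 were lower and 2 higher, where 16.7% of all genes were higher). Their median change was 1.62 in BOKU and 0.02 in SKG-I, and none was below 0 in both lines. All 9 lay under the signal filter on both BOKU siCtrl arrays, from 86.1 (KIF4A) to 398.0 (KIF2C) in the brightest probe sets. The BOKU changes of this list are thus ratios to dim signals.

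In the list of tubulins and microtubule-binding proteins, with 20 measured genes, 2 were called lower and 0 higher, where 2.59% and 2.97% of all genes were. At an unadjusted p under 0.05, 4 were lower and 1 higher, and its median change was −0.16 in BOKU and −0.07 in SKG-I. MAPRE1, the plus-end protein EB1, which the study had also listed from these arrays, changed by −1.69 ± 0.23 in 200713_s_at (limma adjusted p = 0.0292) and by −0.49 ± 0.18 in 200712_s_at (limma adjusted p = 0.167). TUBG1, gamma-tubulin of the centrosome, had 1141 and 1303 in BOKU siIGF2R, against 2663 and 2651 in BOKU siCtrl, and 1437 and 1317 in SKG-I siIGF2R, against 2719 and 2829 in SKG-I siCtrl. It changed by −1.07 ± 0.19 (SE, n = 2 lines; limma adjusted p = 0.0434), and its call was lost without BOKU siCtrl replicate 2 (adjusted p = 0.0525), and in 5 of 23 alternative settings in all (1.8e-05 to 0.9999).

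**Figure D5:**
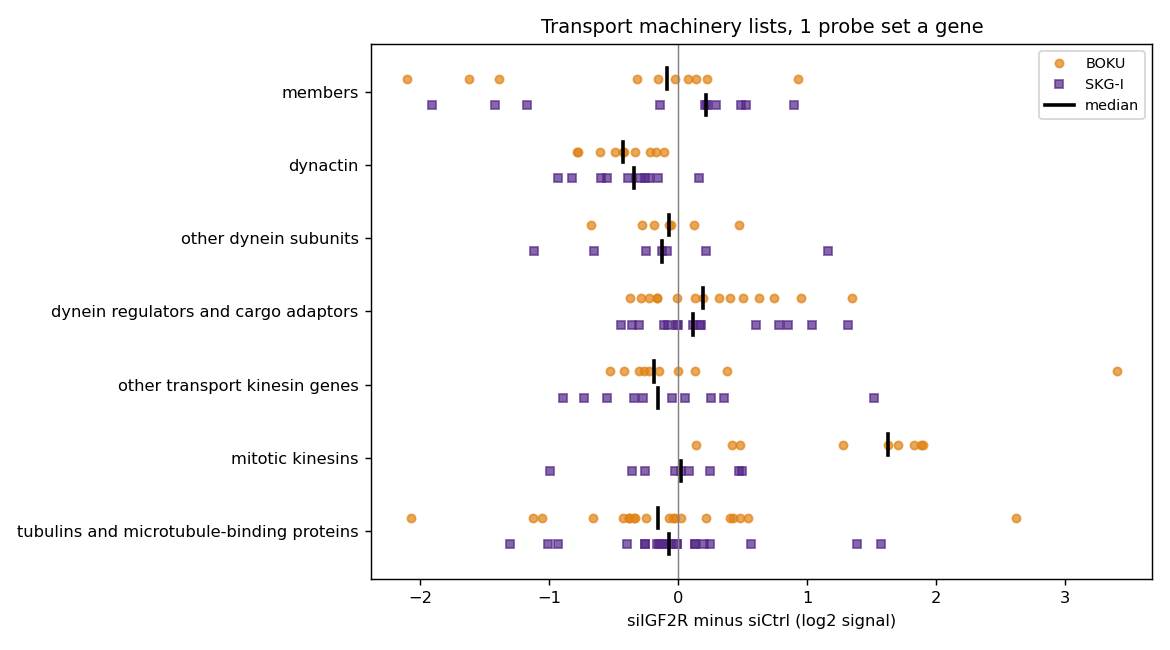
Log2 signal with siIGF2R minus that with siCtrl (horizontal axis) for the members and 6 lists of transport machinery, with 1 probe set per gene. Orange circles are BOKU, purple squares are SKG-I and black bars are medians. The dynactin points lie mostly below 0 in both lines, and the mitotic kinesins lie above 0 in BOKU, with a median of 1.62, and around 0 in SKG-I. All mitotic kinesins shown were under the signal filter on the BOKU siCtrl arrays.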

How the data were processed

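Total RNA of BOKU and SKG-I cells transfected with siIGF2R or siCtrl was hybridised to Affymetrix U133 Plus 2.0 chips. For each array the authors deposited the linear intensity of every probe set. These are signals of MAS5, a tool named in the submitters' processing notes, with the background subtracted and the arrays scaled before deposition. Its trimmed mean was 500.1 on every array, its lowest value was 1, and no filter had been applied. The methods name another scaling target, which was tried as an alternative. Per the methods' figure legend the duplicate arrays carry the same total RNA, so their log2 signals were averaged.

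R 4.3.3 and limma 3.58.1 were used. After the 62 control probe sets were dropped, a probe set was tested if any of the 8 arrays gave it a signal of 500 or more, and log2 was taken with no floor or constant. The model held the cell line and the siRNA (lmFit, eBayes with a variance trend), tests were two-sided, and Benjamini-Hochberg adjusted p values under 0.05 over all 16517 probe sets were called. Residual degrees of freedom number 1, against 4.82 prior degrees of freedom from the variance trend. P values thus rest more on the variance trend over all probe sets than on each probe set's own spread between the 2 lines. Changes within 1 line have no test. The small number of arrays limits the precision.

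Gene names came from the platform annotation: 41097 probe sets had 1 gene, 1801 several and 11777 none in the table used here. Of the measured member probe sets, 6 carry a mark in their ID for probes shared by several transcripts. A list gene was represented by its brightest probe set for medians. All members were named, with called genes of the other lists (up to 3 per list and direction), the 3 genes nearest to DYNC1I2, and IGF2R. The members and lists were chosen with earlier results of these data known. Promoters are from RefSeq (GRCh38.p14), and no genome was used.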

Additional observations from a re-analysis of the deposited data

Results flagged for a closer look

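DYNC1LI2, a dynein light intermediate chain, went opposite ways in the lines in its probe set 224616_at. In BOKU both siIGF2R arrays lay below both siCtrl arrays, and in SKG-I both lay above. The change in SKG-I exceeded that in BOKU by 0.45 on the log2 scale. The difference was not tested, since each line and siRNA gave 1 RNA sample. The gene's other measured probe sets did not show it in full. In 224614_at the siIGF2R arrays lay above in both lines, by 0.14 in BOKU and 0.35 in SKG-I. In 203590_at the changes were −0.18 in BOKU, where the arrays overlapped, and 0.51 in SKG-I. Among all 16517 probe sets, 2141 (12.96%) had arrays that went opposite ways without overlap, and 1 of the 18 member probe sets did. No group has enough arrays for a check of single arrays that stand apart.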

How the results depend on the processing

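The counts of 4 member probe sets and 3 member genes called lower fell to 0 and 0 in limma without the variance trend and to 0 and 0 without the cell line block. Elsewhere they were 3 to 5 probe sets and 2 to 4 genes, the lowest with unmarked probe sets only, which drop the measured probe set of DYNC1I2, and 4 and 3 whichever array was left out. With arrays as separate samples, members called higher numbered 6, and with the replicate block 5. At 1.5-fold, 1 member probe set was higher in each line. The methods' t-test with the 2-fold rule gave 4 lower before and 1 after Benjamini-Hochberg adjustment. Members called higher in BOKU numbered 3 with 500 or more on every array, 3 without the trend, 9 with separate arrays, 9 with the replicate block, and 3 with unmarked probe sets only (4 to 5 with an array left out). Those lower in BOKU numbered 0 without the trend, 2 with separate arrays and 2 with the replicate block.

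Over all probe sets, the calls lower and higher were 346 and 363. They were 223 lower at a mean of 1000, 575 and 655 with a constant of 64, 0 and 0 without the trend, 0 and 0 without the line block, 3833 and 4269 with separate arrays, 3609 and 3992 with the replicate block, and 172 and 229 with unmarked probe sets. Leaving out an array gave 233 to 759 lower and 216 to 838 higher: 759 and 838 without BOKU siCtrl replicate 1, 665 and 786 without BOKU siIGF2R replicate 2, and 216 higher without BOKU siCtrl replicate 2. The list genes called lower, 3 in the report, were 6 with 500 on every array, 1 at a filter of 250, 1 at a mean of 1000, 5 with the constant, 0 without the trend, 0 without the line block, 22 with separate arrays, 19 with the replicate block, 0 with gene means and 1 with unmarked probe sets. Those called higher, 1 in the report, were 0 at 250, with median scaling, at a mean of 1000, without the trend, without the line block and with gene means, 18 with separate arrays and 15 with the replicate block. With an array left out they were 2 to 7 lower (7 without BOKU siCtrl replicate 1 and 7 without BOKU siIGF2R replicate 2) and 0 to 3 higher (3 and 2 without those arrays, and 0 without BOKU siCtrl replicate 2 or BOKU siIGF2R replicate 1).

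In SKG-I none of the 18 member changes turned sign, but in BOKU 8 of 18 did in at least 1 setting. Without BOKU siCtrl replicate 2 these were DYNC1H1 229115_at (−0.45 to 0.04 over all settings), DYNC1LI2 203590_at (−0.39 to 0.02), KIF5B 224662_at (−0.09 to 0.35) and KIF3A 213623_at (−0.15 to 0.06). The others were KIF3A 228680_at (−0.08 to 0.23), DYNLT1 201999_s_at (−0.07 to 0.11), KIF5B 201991_s_at (−0.01 to 0.14) and KIF5B 201992_s_at (−0.21 to 0.09). Among tested values, KIF5B 201992_s_at changed by −0.026 after quantile normalization and −0.0090 after subtracting the median change of 10 signal classes (a setting added after the values had been seen), and by −0.0049 to 0.16 with an array left out. Between the lines it gave −0.072 at a mean of 1000, −0.041 with signal classes and −0.078 to 0.091 with an array left out. DYNC1LI1 222479_s_at gave −0.075, −0.0059 and −0.068 to 0.075 in these settings. The cause was not tested. Replicate numbers mark duplicate arrays of 1 RNA sample and pair nothing across groups: the deviations of duplicates correlated at −0.01 to 0.13 over the 6 pairs of groups.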
